A study of Mus musculus with 8 samples.

Results

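The genes of microsomal fatty acid elongation were followed in brown adipose tissue (BAT) of mice lacking adipose triglyceride lipase (ATGL), the first enzyme of triglyceride breakdown, encoded by Pnpla2. The set held 10 of the 31053 genes in the count table: Elovl1, Elovl3, Elovl4, Elovl5, Elovl6, Elovl7, Hsd17b12, Hacd2, Hacd3 and Tecr. They were picked because, between the same 8 mice, Elovl1 was higher in the mutants while Elovl5 and Elovl6 were lower, so the genotype differences of these genes are given as a description and carry no test. Of the 10 genes, 8 passed the filter on low counts and were among the 8930 genes tested. The libraries came from 4 WT mice and 4 Ucp1Δ/Δ mice (the ATGLKO group of the labels), all C57BL6/J and 10 weeks old by the labels, whereas the study itself gives a younger age. Ucp1Δ/Δ mice were made by crossing Pnpla2 fl/fl mice with a line carrying Cre under the Ucp1 promoter, which is active in brown adipocytes, so that ATGL is deleted in those cells and not in the immune or stromal cells of the tissue. Whether the WT mice carried the floxed allele or Cre is not given in the sources used here, and the study's methods state that all mice were males and speak of harvest after a fast without saying whether the fast covers these animals. The labels name the tissue as brown adipose tissue and the cell type as stromal vascular fraction. The adipocyte gene Adipoq stood at 1087 ± 283 CPM (counts scaled to a common library total; mean ± SD, n = 4) in WT and 615 ± 47.8 CPM in Ucp1Δ/Δ, and Ucp1 at 2719 ± 1281 and 2152 ± 598 CPM, so adipocyte RNA was present in all libraries.

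Elongation adds carbon units from malonyl-CoA to an acyl-CoA on the endoplasmic reticulum in a repeating cycle. An Elovl enzyme carries out the condensation and sets which chain is extended, Hsd17b12 reduces the ketoacyl product, a Hacd enzyme removes water, and Tecr carries out the closing reduction. Elovl6 extends palmitate and related chains made by fatty acid synthase, Elovl5 extends polyunsaturated chains, Elovl1, Elovl3 and Elovl7 make saturated and monounsaturated very long chains, and Elovl4 makes the longest ones. In brown fat Elovl3 is known for its rise in the cold, and Elovl6 is a classic target of the lipogenic factor SREBP-1c.

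Pnpla2 itself was at 2913 ± 191 CPM in WT and 474 ± 59.2 CPM in Ucp1Δ/Δ, or 16.3% of the WT level, with a log2 fold change (log2FC, Ucp1Δ/Δ over WT) of -2.62 (SE 0.17). The libraries were shallow, with 2017697 to 3115956 counts in WT and 2240612 to 2941799 in Ucp1Δ/Δ, and 38.4% to 45.6% of counts lay in mitochondrially encoded genes. Nothing in the labels says that the 4 mice of a genotype came from separate litters or cages, so p-values measure the spread between these animals.

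The promoters of the 3 genes that chose the set are shown because these genes differed in opposite directions between the genotypes. Each sequence is from RefSeq on GRCm38.p6, runs 5′ to 3′ on the plus strand, ends before the annotated first exon, and has in capitals the letters of any motif found. The windows lie at chr3:129532136-129532354 for Elovl6, chr4:118427843-118428092 for Elovl1 and chr9:77917115-77917363 for Elovl5.
Elovl6: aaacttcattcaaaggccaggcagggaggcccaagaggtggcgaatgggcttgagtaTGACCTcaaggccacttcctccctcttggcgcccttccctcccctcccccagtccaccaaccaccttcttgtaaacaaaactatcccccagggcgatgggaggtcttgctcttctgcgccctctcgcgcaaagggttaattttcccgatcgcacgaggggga
Elovl1: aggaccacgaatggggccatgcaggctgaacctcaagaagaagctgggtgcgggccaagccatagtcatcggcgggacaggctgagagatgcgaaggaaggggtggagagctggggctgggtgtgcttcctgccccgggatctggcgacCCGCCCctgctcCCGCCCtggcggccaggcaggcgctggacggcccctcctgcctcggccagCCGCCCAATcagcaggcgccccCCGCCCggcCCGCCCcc
Elovl5: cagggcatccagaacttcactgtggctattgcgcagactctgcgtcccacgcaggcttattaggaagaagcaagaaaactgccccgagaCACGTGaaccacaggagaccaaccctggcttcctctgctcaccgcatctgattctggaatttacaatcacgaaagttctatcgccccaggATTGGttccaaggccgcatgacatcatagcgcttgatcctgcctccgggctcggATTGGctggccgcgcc

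The motifs searched on both strands in the 250 bases before each start were CCAAT (the letters read by NF-Y), CACGTG (an E-box), TCACCCC (a sterol regulatory element), GGGCGG (a GC box, read by Sp1) and AGGTCA (a nuclear receptor half-site). The Elovl6 window held a single match, an AGGTCA on the minus strand 193 to 188 bases before the start. In Elovl1 the window held 5 GC boxes on the minus strand and a CCAAT from 35 to 31 bases before the start, and that CCAAT shares bases with the GC box next to it. Elovl5 had CACGTG from 161 to 156 bases before the start and CCAAT on the minus strand at 71 to 67 and at 17 to 13 bases before it. Promoter sequences were found for 9 of the 10 genes. CCAAT was in the windows of 5 of these 9 (Elovl1, Elovl5, Hacd3, Hsd17b12 and Tecr), against 33.8% of all 32851 mouse promoters of the same length, GGGCGG in 7 against 32.7%, CACGTG in 2 (Elovl5 and Hacd3) against 6.02%, AGGTCA in 2 (Elovl6 and another start of Elovl1) against 14%, and TCACCCC in none against 4.31%. The 250 bases before the start had a GC content of 72% in Elovl1, 56.4% in Elovl6 and 55.6% in Elovl5, with a median of 52.4% over all promoters. A match of letters is a description of the window and not a bound site.

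Among the condensing enzymes, Elovl6, Elovl5 and Elovl3 were lower and Elovl1 higher in Ucp1Δ/Δ BAT, while Elovl4 and Elovl7 were at or near 0 in both genotypes. Elovl6 (chr3:129532355-129638495, plus strand), the most abundant of them, read 593, 564, 652 and 550 CPM in WT mice 1 to 4 and 278, 214, 254 and 258 CPM in Ucp1Δ/Δ mice 1 to 4. Each WT mouse was above every Ucp1Δ/Δ mouse, and both groups were tight, with a coefficient of variation (CV) of 7.62% in WT and 10.7% in Ucp1Δ/Δ. The means were 590 ± 44.9 and 251 ± 26.9 CPM, so Ucp1Δ/Δ mice held 42.5% of the WT level (log2FC -1.23, SE 0.16).

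Elovl5 (chr9:77917364-77984519, plus strand), the elongase of polyunsaturated chains, was at 92.8, 123, 122 and 75.0 CPM in the WT mice and at 39.3, 37.3, 38.0 and 48.1 CPM in the Ucp1Δ/Δ mice. The groups did not overlap, and the WT mice were spread more widely than the Ucp1Δ/Δ mice. Their means were 103 ± 23.5 and 40.7 ± 4.99 CPM, leaving 39.4% of the WT level (log2FC -1.35, SE 0.19). Elovl6 and Elovl5 were thus lower by like amounts, and the number of Elovl6 counts for each Elovl5 count overlapped between the genotypes, with 5.91 ± 1.21 in WT and 6.21 ± 0.800 in Ucp1Δ/Δ.

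Elovl3 (chr19:46131897-46135694, plus strand), the cold-responsive elongase of brown fat, differed most between mice of a genotype. Its level was 22.9, 64.1, 49.1 and 13.2 CPM in WT mice 1 to 4 and 15.6, 4.98, 3.34 and 15.0 CPM in Ucp1Δ/Δ mice 1 to 4. The groups overlapped, since WT mouse 4 was below Ucp1Δ/Δ mice 1 and 4. The highest mouse exceeded the lowest 4.86-fold in WT and 4.66-fold in Ucp1Δ/Δ, and the CV of 62.7% and 66.5% was far above the 10.5% and 19.7% that counting error alone gives at these counts. The means of 37.3 ± 23.4 and 9.73 ± 6.47 CPM gave the lowest log2FC of the set, -1.96, with the largest SE, 0.48. Elovl3 passed the filter on low counts through the WT mice, as all 4 of them but only 3 Ucp1Δ/Δ mice reached the 4.22 CPM that was required in 4 mice.

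Elovl1 (chr4:118428093-118432953, plus strand), which makes saturated and monounsaturated very long chains for ceramides and other sphingolipids, was at 6.12, 7.62, 5.01 and 6.59 CPM in WT and 18.8, 14.6, 14.6 and 15.9 CPM in Ucp1Δ/Δ. These values rest on 12 to 17 counts a mouse in WT and 35 to 53 in Ucp1Δ/Δ. Every Ucp1Δ/Δ mouse was nonetheless above every WT mouse, and the CV of 17.1% and 12.2% stayed within the 26.5% and 15.2% expected from counting alone. Ucp1Δ/Δ mice held 2.52-fold the WT level, 16.0 ± 1.95 against 6.33 ± 1.08 CPM (log2FC 1.34, SE 0.24). Exons of Elovl1 overlap those of Cdc20 on the other strand over 53 bases, and Cdc20 had 27 counts over all 8 mice.

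Elovl4, the elongase of the longest chains, had no count in any mouse, which over the summed counts of a genotype allows a level of up to 0.327 CPM in WT and 0.279 CPM in Ucp1Δ/Δ. Elovl7 had 1 count in WT mouse 1, 2 counts in WT mouse 3 and none elsewhere. These limits cover counting error only.

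**Figure D1:**
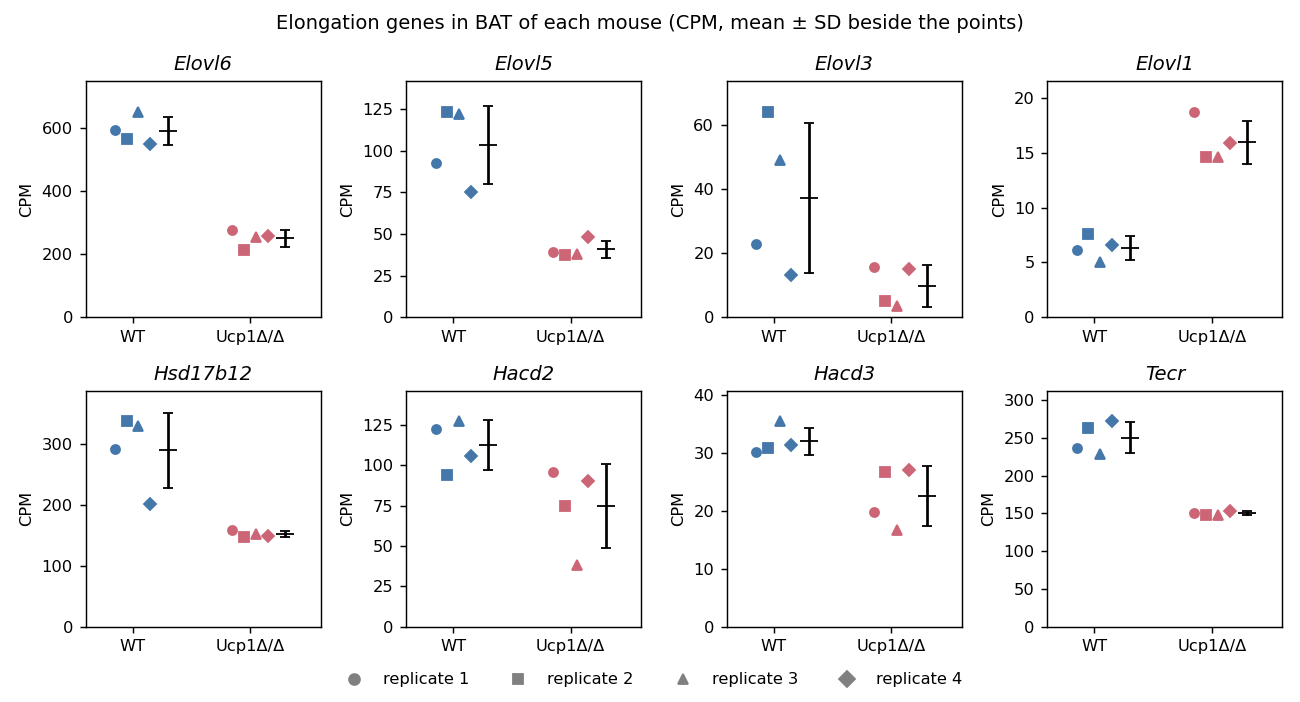
CPM of the 8 elongation genes that passed the low-count filter, with 1 point per mouse (blue, WT; red, Ucp1Δ/Δ; marker shape, replicate number) and the mean ± SD (n = 4) beside the points. Elovl6, Elovl5, Hsd17b12, Hacd3 and Tecr are lower in every Ucp1Δ/Δ mouse, Elovl1 is higher in each of them, and Elovl3 and Hacd2 overlap.

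The genes that complete the cycle were all lower on average in Ucp1Δ/Δ BAT, with smaller differences than Elovl5 and Elovl6. Hsd17b12 (chr2:94032689-94157964, minus strand), the ketoacyl-CoA reductase, was at 292, 338, 330 and 202 CPM in WT and 159, 148, 153 and 149 CPM in Ucp1Δ/Δ. The groups did not overlap, WT mouse 4 lying lowest of its group, and the 4 Ucp1Δ/Δ mice were nearly level. The means were 290 ± 62.1 and 152 ± 4.93 CPM (52.5% of WT, log2FC -0.93, SE 0.18).

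Tecr (chr8:83571698-83607971, minus strand), which carries out the last step, was at 237, 263, 228 and 272 CPM in WT and 151, 148, 148 and 154 CPM in Ucp1Δ/Δ. Again the groups stood apart and the Ucp1Δ/Δ mice were nearly level, at 150 ± 2.78 against 250 ± 20.6 CPM (60.0% of WT, log2FC -0.74, SE 0.15). Both reductases are shared by all elongases, and their ratio overlapped between the genotypes, with 1.18 ± 0.301 Hsd17b12 counts for each Tecr count in WT, where mouse 4 was lowest at 0.744, and 1.01 ± 0.0372 in Ucp1Δ/Δ.

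The dehydratases had the smallest differences. Hacd2 (chr16:35022428-35109177, plus strand) read 123, 94.1, 127 and 106 CPM in WT and 96.2, 74.7, 38.4 and 90.6 CPM in Ucp1Δ/Δ, with overlap and a low value in Ucp1Δ/Δ mouse 3 (log2FC -0.58, SE 0.24). Hacd3 (chr9:64986983-65021693, minus strand) was at 30.1, 30.9, 35.4 and 31.4 CPM in WT and 19.8, 26.8, 16.7 and 27.0 CPM in Ucp1Δ/Δ. Its groups did not overlap, but the gap between the lowest WT and the highest Ucp1Δ/Δ mouse was small next to the SD of 5.15 CPM in Ucp1Δ/Δ (log2FC -0.50, SE 0.20).

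In the fit over all genes, 1 of the 8 tested elongation genes was called higher (Elovl1) and 5 lower (Elovl3, Elovl5, Elovl6, Hsd17b12 and Tecr) by edgeR's quasi-likelihood test at an adjusted p under 0.05, where 21.0% of the 8930 tested genes were called, 13.3% higher and 7.63% lower. The 2 genotypes did not overlap for 1 gene in the higher direction and for 5 in the lower direction, Hacd3 taking the place of Elovl3, where 14.4% and 9.37% of all tested genes, 23.7% in all, were so separated. Since the set was chosen on this contrast, nothing is read from these counts. The median log2FC of the 8 genes was -0.83, beside a median of -0.0088 over all tested genes.

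Levels of different genes were compared as CPM per kilobase of annotated exon, a scale that assumes reads along the whole transcript. The study's methods name a digital mRNA-seq service with single-end reads. Where along a transcript those reads lie is not stated in the sources used here. Without division by length the order differed, with Elovl6 highest at 590 CPM in WT and 251 CPM in Ucp1Δ/Δ. Hsd17b12 was then at 290 and 152 CPM and Tecr at 250 and 150 CPM, so the order given next depends on that assumption. In WT BAT, Hsd17b12 (121 ± 25.8 CPM per kilobase) and Tecr (114 ± 9.41) were highest and differed by less than their summed SDs, followed by Elovl6 (91.7 ± 6.99). Hacd2 (30.0 ± 4.10), Elovl5 (29.3 ± 6.67), Elovl3 (18.9 ± 11.9) and Hacd3 (11.8 ± 0.872) came next, each within the summed SDs of its neighbour, and Elovl1 lay below them at 2.32 ± 0.397. In Ucp1Δ/Δ BAT the order on this scale was Tecr (68.5 ± 1.27), Hsd17b12 (63.3 ± 2.05), Elovl6 (39.0 ± 4.19), Hacd2 (20 ± 6.94), Elovl5 (11.5 ± 1.42), Hacd3 (8.34 ± 1.90), Elovl1 (5.86 ± 0.714) and Elovl3 (4.93 ± 3.27). From Elovl5 down to Elovl3, neighbours in the Ucp1Δ/Δ order differed by less than their summed SDs, so Elovl1 and Hacd3, which stood apart in WT, did not do so in Ucp1Δ/Δ.

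The make-up of the elongase pool was read from the summed CPM of the 6 Elovl genes, which was 715, 759, 828 and 645 in the WT mice and 352, 271, 310 and 337 in the Ucp1Δ/Δ mice. The sum was lower in each Ucp1Δ/Δ mouse, but Elovl6 took a like share of it, 80.3 ± 4.84% in WT and 79.1 ± 2.19% in Ucp1Δ/Δ. Elovl5 likewise took 13.9 ± 2.01% and 12.9 ± 1.42%. The share of Elovl1 was 0.871 ± 0.193% in WT and 5.04 ± 0.376% in Ucp1Δ/Δ. For each Elovl1 count there were 96.9, 74.1, 130 and 83.5 Elovl6 counts in the WT mice and 14.8, 14.6, 17.3 and 16.2 in the Ucp1Δ/Δ mice. This ratio within a mouse does not depend on how libraries are scaled, and its means were 96.1 ± 24.5 and 15.8 ± 1.28.

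**Figure D2:**
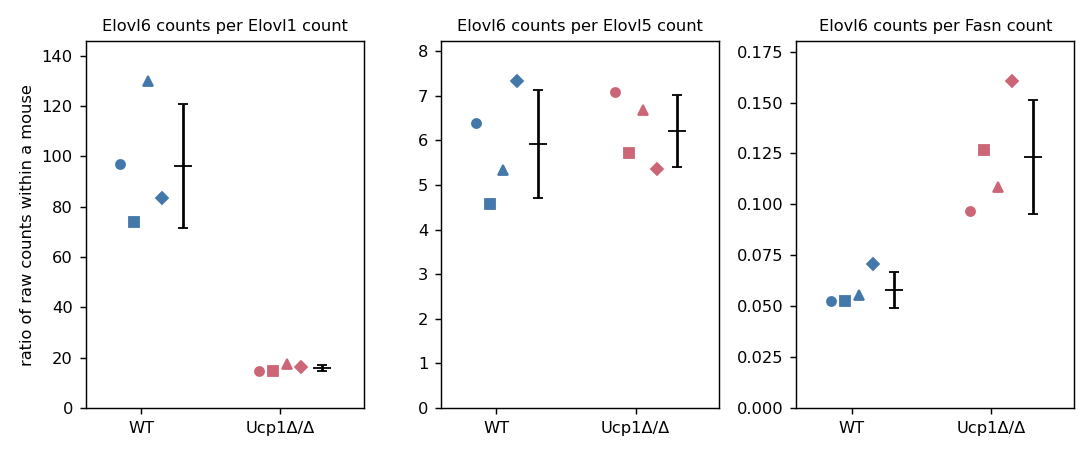
Ratios of raw counts within each mouse, with 1 point per mouse (blue, WT; red, Ucp1Δ/Δ) and the mean ± SD (n = 4) beside the points. Elovl6 counts per Elovl1 count are 96.1 ± 24.5 in WT and 15.8 ± 1.28 in Ucp1Δ/Δ with no overlap, Elovl6 counts per Elovl5 count overlap, and Elovl6 counts per Fasn count are higher in every Ucp1Δ/Δ mouse. Marker shapes give the replicate number (circle 1, square 2, triangle 3, diamond 4).

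Within the genotypes, the elongation genes did not all vary together. As a description over 8 mice, with each gene's log2 CPM taken as a deviation from its genotype mean, Elovl5 varied with Elovl3 (Pearson's r 0.834, Spearman's rho 0.81) and with Hsd17b12 (r 0.834, rho 0.762). Elovl6 and Elovl5, which were lower by like amounts in Ucp1Δ/Δ BAT, were less alike within them (r 0.412, rho 0.476). Both genes of a pair were read in the same library of each mouse, and so share its depth and scaling, and no p is given.

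By the same measure, over the 4328 genes with a mean of at least 20 CPM, the genes most like Elovl1 were Cd74 (r 0.985, rho 0.976), the invariant chain of MHC class II, Rgcc (r 0.962, rho 0.976) and the ubiquitin gene Ubb (r 0.952, rho 0.857). Those most like Elovl5 were Fastk (r 0.973), Rnf185 (r 0.967) and Api5 (r 0.955), and those most like Elovl6 were Slc25a39 (r 0.961), Ttc13 (r 0.951) and Kctd17 (r 0.94). Each list holds the 3 highest of 4328 values, and high values arise among so many genes with 8 mice. For Elovl1 the spread within a genotype was also no larger than counting error, so nothing is read from its matches.

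Of the other genes of the family, Hacd4, another member of the dehydratase family, was higher in Ucp1Δ/Δ BAT, with 2.04, 2.69, 2.34 and 3.55 CPM in WT and 7.43, 16.2, 9.61 and 6.87 CPM in Ucp1Δ/Δ. No WT mouse reached the level of any Ucp1Δ/Δ mouse, and the log2FC was 1.93 (SE 0.37) with an adjusted p of 0.001552 by edgeR's quasi-likelihood test. Hacd4 was tested only because the Ucp1Δ/Δ mice carried it past the low-count filter, and its exons overlap those of Focad on the other strand over 746 bases. Hacd1, best known from muscle, was lower at 18.9 ± 2.05 against 30.7 ± 8.45 CPM (log2FC -0.70, SE 0.22, edgeR adjusted p 0.03696), with overlapping groups. That call was lost in 9 of 17 alternative fits, among them each fit without 1 mouse except the fit without WT mouse 4 (log2FC -0.88 without that mouse, -0.73 to -0.58 without another). Elovl2 had no count in any mouse, and Tecrl had 2 counts in Ucp1Δ/Δ mouse 2 and none elsewhere.

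Most tested genes of the list for malonyl-CoA and palmitate supply were lower in Ucp1Δ/Δ BAT. Of the 12 genes of this list 11 were tested, 9 fell and none rose by edgeR's quasi-likelihood test, where 7.63% of all tested genes fell, with a median log2FC of -1.15. The 9 include Mlycd (log2FC -0.85, SE 0.22), which encodes the decarboxylase that removes malonyl-CoA, so they are not all genes of supply. Fasn, the fatty acid synthase that makes palmitate, fell from 10382 ± 1792 to 2125 ± 596 CPM (log2FC -2.29, SE 0.23, edgeR adjusted p 4.214e-06). Slc25a1, which carries citrate out of mitochondria, fell from 301 ± 33.3 to 98.1 ± 16.3 CPM (log2FC -1.62, SE 0.17, edgeR adjusted p 9.475e-06). Acly, which cleaves citrate to acetyl-CoA, fell from 426 ± 173 to 115 ± 17.8 CPM (log2FC -1.89, SE 0.25, edgeR adjusted p 5.296e-05). All 9 had no overlap between the groups, as had 9.37% of all tested genes in the lower direction. Mcat and Oxsm, of the mitochondrial pathway, were not called, with log2FC of -0.47 and 0.08, and Olah had no count in any mouse.

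Elovl6 differed less than Fasn, which makes its substrate. For each Fasn count there were 0.0526, 0.0526, 0.0555 and 0.0708 Elovl6 counts in the WT mice and 0.0969, 0.127, 0.108 and 0.161 in the Ucp1Δ/Δ mice. Against Scd1, the desaturase that acts on the product of Elovl6, the order turned, with 0.0247 ± 0.00371 Elovl6 counts for each Scd1 count in WT and 0.0132 ± 0.00198 in Ucp1Δ/Δ. Neither ratio overlapped between the genotypes, and since Elovl6 was chosen on this contrast they are given without a test.

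The desaturases and their electron carriers mostly did not pass the test in either direction. Of 12 genes 8 were tested and 1 rose by edgeR's quasi-likelihood test, where 13.3% of all tested genes rose, with a median log2FC of 0.25. The gene that rose was Fads3, a member of the fatty acid desaturase family, with 4.59, 4.03, 0.668 and 8.61 CPM in WT and 27.6, 26.1, 19.2 and 18.0 CPM in Ucp1Δ/Δ (log2FC 2.44, SE 0.40, edgeR adjusted p 0.000445). Only 2 WT mice reached the low-count cutoff for it, so it was tested because it was high in Ucp1Δ/Δ. Scd1, named here after its values were seen, was at 24191 ± 2741 CPM in WT and 19158 ± 1481 CPM in Ucp1Δ/Δ, without overlap and without passing the test (log2FC -0.34, SE 0.18, edgeR adjusted p 0.2036), although DESeq2 called it lower. Cyb5r1, a reductase gene also named after its values were seen, was not called (log2FC 0.61, SE 0.21, edgeR adjusted p 0.05154) but was called higher in 7 of 17 alternative fits. Fads1 and Scd2 were low, at 6.87 and 6.69 CPM on average in WT, and Fads2 had 5 counts over all mice.

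Of the 21 regulators of lipogenic genes 19 were tested, and 3 fell and none rose by edgeR's quasi-likelihood test, with a median log2FC of -0.12. The share called was 15.8%, all of it lower, where 7.63% of all tested genes were called lower and 21.0% in either direction. Insig1, the sterol-sensing anchor of the SREBP complex and itself a target of SREBP, fell from 61.8 ± 21.8 to 18.1 ± 3.97 CPM (log2FC -1.77, SE 0.24, edgeR adjusted p 9.36e-05). The receptor gene Ppara, which drives fatty acid oxidation genes, was lower at 94.9 ± 34.2 against 203 ± 48.6 CPM (log2FC -1.10, SE 0.25, edgeR adjusted p 0.004762), and Mlx, the partner of ChREBP, at 5.63 ± 2.38 against 14.0 ± 4.56 CPM (log2FC -1.34, SE 0.33, edgeR adjusted p 0.009226). Both of these overlapped between the groups. The factor genes best known for control of Elovl6 did not pass the test: Srebf1 was at 6.12, 18.8, 11 and 3.55 CPM in WT and 9.55, 6.22, 5.85 and 6.44 CPM in Ucp1Δ/Δ (log2FC -0.51, SE 0.40), and Mlxipl, which encodes ChREBP, had a log2FC of -0.09 (SE 0.17). The wide spread of Srebf1 at these low counts leaves a difference of the size seen for Elovl6 within 2 SE of its value, and mRNA level says nothing of SREBP processing.

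Among 21 genes that activate fatty acids or handle very long chains, 15 were tested, and 6 fell and none rose by edgeR's quasi-likelihood test (median log2FC -0.37), where 7.63% of all tested genes fell. The call of Dbi, the acyl-CoA binding protein, was lost in 8 of 17 alternative fits. Acsl5, an acyl-CoA synthetase, fell from 84.9 ± 30.5 to 30.7 ± 4.46 CPM (log2FC -1.47, SE 0.24, edgeR adjusted p 0.0003452). Abcd3, which encodes a peroxisomal membrane transporter, fell from 244 ± 40.1 to 119 ± 20.7 CPM (log2FC -1.04, SE 0.18, edgeR adjusted p 0.0006956).

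The ceramide and sphingolipid genes, only some of which act where the very long chains made by Elovl1 are used, went both ways. Of 22 genes 15 were tested, 4 rose and 1 fell by edgeR's quasi-likelihood test, where 13.3% of all tested genes rose and 7.63% fell, with a median log2FC of 0.31. Cerk, which phosphorylates ceramide, rose from 4.09 ± 0.378 to 17.4 ± 3.52 CPM (log2FC 2.09, SE 0.26, edgeR adjusted p 4.258e-05). The sphingomyelin synthase gene Sgms2 was at 0.997 ± 0.438 CPM in WT, or 9 counts in all, and at 7.31 ± 2.89 CPM in Ucp1Δ/Δ (log2FC 2.86, SE 0.46, edgeR adjusted p 0.0003302). Ugcg, the glucosylceramide synthase, rose from 2.26 ± 0.676 to 7.26 ± 1.38 CPM (log2FC 1.64, SE 0.34, edgeR adjusted p 0.002918). Cerk, Sgms2, Ugcg and Cers4, the 4 genes that rose, reached the low-count cutoff in 1, 0, 0 and 2 WT mice, so they were tested because they were high in Ucp1Δ/Δ, and their number supports nothing about the list. Ormdl3, a brake on the first step of sphingolipid synthesis, fell from 327 ± 27.1 to 202 ± 29.7 CPM (log2FC -0.69, SE 0.16, edgeR adjusted p 0.006372). Cers2, the ceramide synthase that takes the very long chains of Elovl1, was at 66.4 ± 9.20 and 82.0 ± 10.3 CPM and was not called (log2FC 0.31, SE 0.17).

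**Figure D3:**
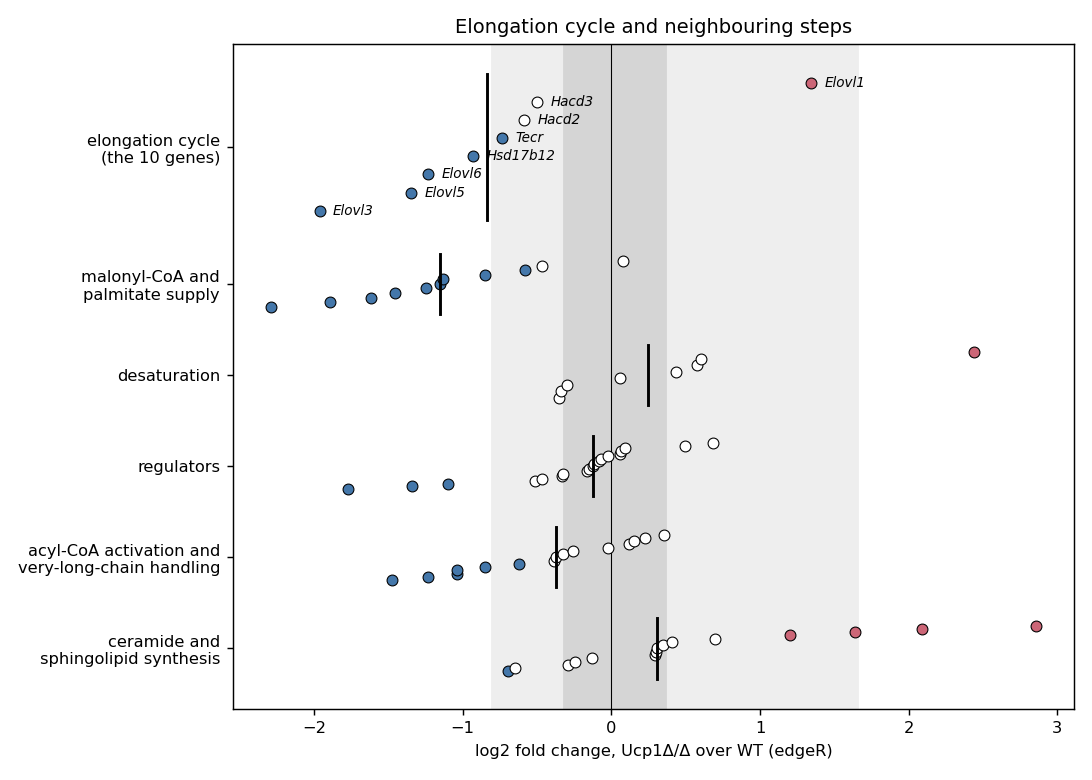
Log2 fold change (Ucp1Δ/Δ over WT) of each tested gene, by list, with blue points called lower, red points called higher and white points not called by edgeR at an adjusted p under 0.05. Black bars mark each list's median, and dark and light shading span the middle 50% and 90% of all tested genes. The elongation and supply lists have medians of -0.83 and -1.15, Elovl1 stands to the right at 1.34, and the desaturation and ceramide lists have medians above 0.

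The marker sums of some cell types moved with the genotype, and in bulk tissue fewer cells of a type and less RNA per cell cannot be told apart. The summed level of 10 macrophage markers ranged from 106 to 166 CPM in WT and from 1020 to 1687 CPM in Ucp1Δ/Δ, with none at 0 in all mice of a genotype. All 9 tested markers rose by edgeR's quasi-likelihood test, where 13.3% of all tested genes rose. However, Cd68, Adgre1, Mrc1 and Tyrobp did not reach the low-count cutoff in every WT mouse, so they were tested because they were high in Ucp1Δ/Δ. Cd14 did not pass the filter, at 2.53 ± 1.09 CPM in WT and 3.64 ± 2.12 CPM in Ucp1Δ/Δ. Elovl1 was higher in the Ucp1Δ/Δ mice, as the marker sum was. In Ucp1Δ/Δ mice 1 to 4 the markers summed to 1345, 1687, 1020 and 1049 CPM, beside Elovl1 at 18.8, 14.6, 14.6 and 15.9 CPM. Since Elovl1 varied no more within Ucp1Δ/Δ than counting alone gives, its order of mice is not read. The 6 fibroblast and stromal markers summed to 340 to 534 CPM in WT and 1068 to 2163 CPM in Ucp1Δ/Δ. All 6 rose, where 13.3% of all tested genes rose, but Pdgfra and Lum did not reach the low-count cutoff in every WT mouse. These 2 genes were tested because they were high in Ucp1Δ/Δ. Summed over 8 genes, the adipocyte markers ranged from 10764 to 12865 CPM in WT and from 7376 to 10570 CPM in Ucp1Δ/Δ. Of these genes 3 were called lower (Adipoq, Plin1 and Cidec) and 1 higher (Lep), where 7.63% of all tested genes were called lower and 13.3% higher. Lep was tested because it was high in Ucp1Δ/Δ. On the log2 scale the adipocyte sum differed by -0.46 between the genotype means, but Fabp4 (log2FC -0.39) held 6531 of its 11600 CPM in WT. The log2FC was -0.82 for Adipoq, -0.91 for Plin1, -1.01 for Cidec, -0.35 for Cfd, -0.33 for Pparg, -0.36 for Lipe and 4.89 for Lep. Among the elongation genes it was -1.35 for Elovl5, -1.23 for Elovl6, -0.93 for Hsd17b12 and -0.74 for Tecr. The part of cell type make-up in the differences of the elongation genes was not tested.

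The 8 brown adipocyte markers summed to 9899, 15841, 13101 and 6300 CPM in WT mice 1 to 4, the same order of mice as for Elovl3, and to 9099, 5407, 8065 and 6748 CPM in Ucp1Δ/Δ mice 1 to 4, where the order differed from that of Elovl3. Cidea (5948 CPM) and Ucp1 (2719 CPM) held much of the mean sum of 11285 CPM in WT. Ucp1 alone read 2821, 1421, 1972 and 2394 CPM in Ucp1Δ/Δ mice 1 to 4, with mice 1 and 4 highest, as for Elovl3. Of the 8 genes 1 was called lower (Cidea) and 1 higher (Dio2), where 21.0% of all tested genes were called. Dio2 did not reach the low-count cutoff in every WT mouse. The 6 endothelial markers summed to 137 to 172 CPM in WT and 190 to 205 CPM in Ucp1Δ/Δ. Of 5 tested genes 1 was called (Tie1, higher), near the 21.0% called among all tested genes, and Emcn went the other way (log2FC -0.41, SE 0.27). The 4 vascular smooth muscle markers summed to 21.4 to 26.0 CPM in WT and 35.1 to 72.5 CPM in Ucp1Δ/Δ. Of 3 tested genes 1 was called, Acta2, at 9.89 ± 3.55 and 35.5 ± 16.8 CPM, whereas Myh11 was at 8.87 ± 3.21 and 9.23 ± 2.16 CPM. Skeletal muscle markers varied widely within both genotypes, from 15.0 to 1177 CPM in WT and from 46.8 to 1552 CPM in Ucp1Δ/Δ, with none of 6 called, and T and B cell markers stayed at or below 6.72 CPM in sum with Cd79a at 0 in every mouse.

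**Figure D4:**
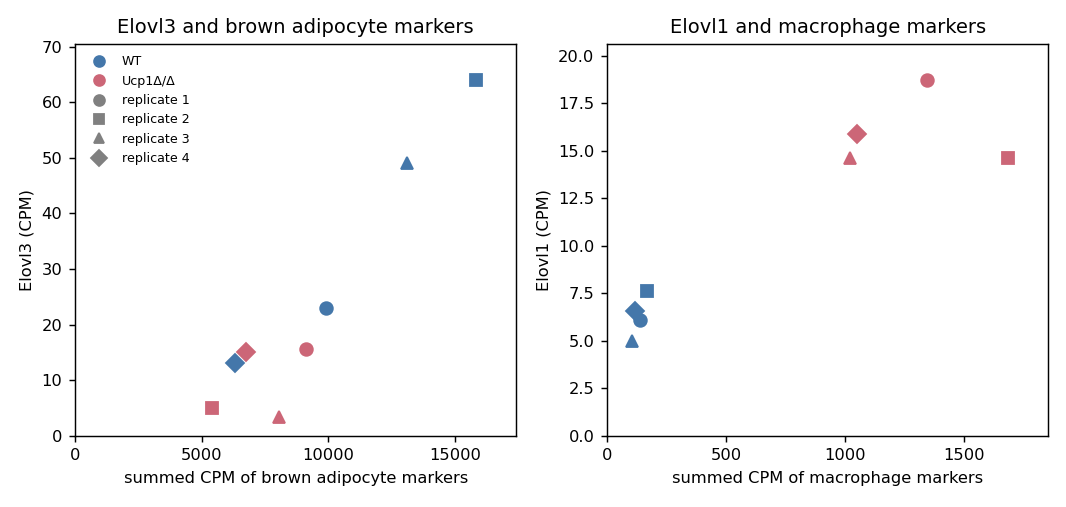
CPM of elongation genes (vertical axis) against the summed CPM of a marker list (horizontal axis) in the 8 mice, with blue points for WT and red points for Ucp1Δ/Δ. Elovl1 is high in the mice with 1020 to 1687 CPM of macrophage markers. The order of Elovl3 follows that of the summed brown adipocyte markers within WT but not within Ucp1Δ/Δ.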

How the data were processed

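RNA from BAT of 4 WT and 4 ATGLKO (Ucp1Δ/Δ) mice was sequenced by the study, and the values are whole-number counts per gene, deposited by the authors without normalization, for 31053 Ensembl genes, 119 of them without a symbol. The study's methods name bbduk, STAR and HTseq-counts, whereas the submitters' processing notes name Trimmomatic, HISAT2 and DESeq2. Strand setting and annotation release are not given in the sources used here, so reads of genes that overlap on opposite strands may not be separable. The authors also deposited log2 values, which equalled log2(count / size factor + 1) of the same table within 5.15e-14 and served as an alternative. Their sample attribute table was not used.

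Counts were filtered with edgeR's filterByExpr (4.22 CPM in at least 4 mice), scaled by TMM and fitted with the quasi-likelihood test of edgeR 4.0.16 in R 4.3.3 over 8930 genes, with genotype as the only term, Benjamini-Hochberg adjustment and a threshold of 0.05. CPM are counts divided by the TMM-scaled library total, on the usual CPM scale, and log2 CPM used a prior count of 2. Limits for a count of 0 used 3 counts. Alternatives were DESeq2 1.42.0, limma 3.58.1, other scalings and filters, the replicate number as a block and leaving out each mouse. In simulated data for 4 WT against 4 ATGLKO mice (200 genes changed among 8984 tested), the fit recovered 64.3% of 98 genes changed by 1 on the log2 scale and 100% of 100 changed by 2, with 6.86% of calls false. Counts of same-genotype pairs differed by 4.69 to 23.2 times sampling noise, so no pair was treated as 1 sample.

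The members and gene lists were chosen with earlier results of these data known. Genes named were the 10 members, Pnpla2, 4 other family genes, the 3 called genes of smallest adjusted p in each direction of each list, the 3 genes most like Elovl1, Elovl5 and Elovl6, and markers that define a list or stand at 0. Other list genes were named after their values were seen. A gene that this rule names is not reported here. Positions are from the GENCODE annotation of GRCm38.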

Additional observations from a re-analysis of the deposited data

Results flagged for a closer look

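A mouse far from the other 3 of its genotype was looked for in log2 CPM of each named gene, as the gap to its nearest neighbour divided by the group's range and judged by Dixon's 95% critical value. It was found in 3 of 50 groups, where chance gives 2.5. Slc25a1 in Ucp1Δ/Δ mouse 1 had a ratio of 0.852 and lay at 6.95, the other mice of its genotype lying at 6.47 to 6.54. Mlx in Ucp1Δ/Δ mouse 3 had a ratio of 0.868, at 3.32 where the others had 2.34 to 2.47. Cerk in Ucp1Δ/Δ mouse 1 had a ratio of 0.831, at 4.55 where the others had 4.0 to 4.1. None of the 8 tested elongation genes had such a mouse in either genotype.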

How the results depend on the processing

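Log2FC of 25 named genes gave 419 values over the alternatives, of which none changed sign and 408 kept their side of the threshold. Exceptions were Hacd1, not called in 9, and Hacd2, called with limma voom (-0.73) and with at least 1 count in any mouse (-0.61). The elongation genes called numbered 6 without any 1 mouse and 5 to 7 otherwise, Elovl3 being untested with at least 10 counts in every mouse. That filter gave 1195 genes called of 6928 tested, against 1872, and 2 ceramide genes, against 5, since genes low in WT were not tested. Leaving out a mouse gave 1345 (without Ucp1Δ/Δ mouse 2) to 2155 genes (without WT mouse 4), 1 to 2 desaturation genes (2, with Cyb5r1, without WT mouse 2 or Ucp1Δ/Δ mouse 4) and 4 to 6 ceramide genes. Acacb and Mlycd were not called without Ucp1Δ/Δ mouse 2, nor Cers4 without WT mouse 1, WT mouse 3 or Ucp1Δ/Δ mouse 3. Dbi was not called without WT mouse 1, WT mouse 3 or Ucp1Δ/Δ mouse 1, 2 or 4, with total counts only, with mitochondrially encoded genes left out, or with at least 10 counts in every mouse. Desaturation genes called numbered 2, against 1, with total counts only, limma voom, at least 1 count in any mouse and the replicate block (Cyb5r1 added), and 2 with DESeq2 (Scd1 added, lower). The summed skeletal muscle markers had a log2 ratio of 0.458 that ranged from -0.498 (without Ucp1Δ/Δ mouse 2) to 1.514. Scaling by total counts put the median log2FC over all genes at 0.13 instead of -0.0087 and the share of higher calls from 63.6% to 78.5%, and the same 6 elongation genes were called. Same-numbered mice had correlations of deviations of -0.0873, -0.196, 0.304 and 0.241. Without a reference for unpaired mice, these values cannot decide whether the numbers pair them. The replicate block gave 1719 genes. At 2017697 to 3115956 counts a library, Elovl1, Hacd3 and Srebf1 rest on few counts.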
